A study of Mus musculus with 24 samples.

Results

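The data described here are the injured hearts of mice given pyridostigmine, DTR_PYR, set against uninjured hearts of mice given the same drug, WT_PYR. All 6 libraries labelled DTR_PYR and all 6 labelled WT_PYR were taken, 12 of the 24 libraries of the series. The animals were male C57BL/6 mice aged 10 weeks, and the apex of the ventricles was collected at day 5. DTR_PYR hearts had an injury made with diphtheria toxin, and WT_PYR hearts had no toxin. DTR commonly abbreviates diphtheria toxin receptor, a protein that makes mouse cells take up the toxin. The sources used here do not say in which cells it was present. Genotype and toxin went together, so they cannot be told apart, and "injury" below stands for both. The other 12 libraries, WT_PBS and DTR_PBS, had PBS in place of the drug and are used here for reference.

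Pyridostigmine inhibits cholinesterases and so prolongs the action of acetylcholine, the transmitter of the vagus nerve. Acetylcholine slows the heart through muscarinic receptors and is known to restrain cytokine release by macrophages through nicotinic receptors. After injury a heart typically turns on stress and fetal genes in its surviving muscle cells, takes in monocytes that become macrophages, and lays down matrix, while genes of energy metabolism and of the ion channels fall.

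Total counts were 7.24 to 15.3 M reads in WT_PYR and 2.39 to 37.8 M in DTR_PYR, where libraries 1, 2 and 3 had 5.97, 2.81 and 2.39 M and libraries 4, 5 and 6 had 9.66, 37.8 and 6.49 M. Mitochondrially encoded genes took 9.08% to 12.6% of the counts in WT_PYR. They took 6.03%, 4.60% and 5.61% in DTR_PYR 1, 2 and 3 and 14.6%, 17.9% and 12.7% in DTR_PYR 4, 5 and 6, and the difference of the group means did not pass (exact two-sided permutation test, adjusted p = 0.896). On the first principal component of the 12 libraries, which held 41.8% of the variance, the scores of WT_PYR ran from −41.9 to −20.4. DTR_PYR 4 and 5 scored −29.7 and −24.9, inside that range, and DTR_PYR 6 scored −11.4, while DTR_PYR 1, 2 and 3 scored 71.2, 127.6 and 70.3. WT_PYR 1 stood apart from the rest of its group, with a mean deviation from the group median of 0.418 (log2) per gene where the others had 0.111 to 0.163. Each animal tag closes with the letter U or V, and the sources used here do not explain the letters. U marked DTR_PYR 1 and 2 and WT_PYR 1, 4, 5 and 6, and V marked the rest. The labels give each library its own animal tag but say nothing of how the animals were housed or handled, so p-values measure the spread between these samples.

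Injured hearts given pyridostigmine had more RNA of stress, matrix, macrophage and cytokine genes and less of the ventricular light chain Myl2 and the potassium channel subunit Kcnip2, but the libraries of the injured group differed widely in how far they had moved. In most of the genes that rose, DTR_PYR 1, 2 and 3 were far above the uninjured range and DTR_PYR 4, 5 and 6 in or just above it. A smaller set of rises, Fos and Serpina3n among them, was above the uninjured range in all 6. In edgeR's quasi-likelihood test with all 24 libraries in the fit, 1891 of 15456 genes (12.2%) passed a Benjamini-Hochberg adjusted p of 0.05. Of these, 1246 rose (8.06% of genes tested) and 645 fell (4.17%). Counts of called genes in the lists below are to be read against these shares. The median difference over all genes was 0.04 (log2). Under total-count scaling that median was 0.19 and the calls were 1880 up and 395 down, so a fall is always relative to the trimmed-mean (TMM) scaling used.

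The call rests on which injured libraries are in the fit. Leaving out DTR_PYR 1, 2 or 3 in turn gave 744, 750 or 1110 called genes, and leaving out DTR_PYR 4 gave 2699. With DTR_PYR 4, 5 and 6 all left out 5027 genes were called, and with DTR_PYR 1, 2 and 3 all left out 3 were called, Fos, Serpina3n and AI593442. Those last sets were chosen after the values were seen, so a larger response in the first and a smaller in the second is built into the choice. Within U libraries 4371 genes were called and within V libraries 0 (669 at an unadjusted p under 0.05 in edgeR). The U fit held only DTR_PYR 1 and 2 of the injured group, and the V fit DTR_PYR 3 to 6 against 2 uninjured libraries. The part of depth, mitochondrial share and tag letter in these differences was not tested.

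Among the called genes, 616 had no overlap between the 6 injured and the 6 uninjured libraries, 274 of those that rose and 342 of those that fell. Over all genes tested 829 (5.36%) did not overlap, 338 higher (2.19%) and 491 lower (3.18%). Called rises and called falls differed in how many injured libraries lay outside the uninjured range. Only 22% of the genes that rose lay above the uninjured range in all 6 injured libraries, and 19.3% did so in exactly 3. Of the genes that fell, 53% lay below it in all 6. These same libraries also made the calls, so the shares depend on which genes could pass. Over all genes tested the contrast was smaller, with 2.19% above and 3.18% below in all 6. In exactly 3 libraries, 12.95% of all genes were above and 10.31% below. Among the rises, the pattern of DTR_PYR 1, 2, 3 and 6 above the range held 252 genes and that of DTR_PYR 1, 2 and 3 alone 224. Among the falls, the next most frequent pattern after all 6 was DTR_PYR 1, 2, 3, 5 and 6, with 88 genes.

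**Figure D1:**
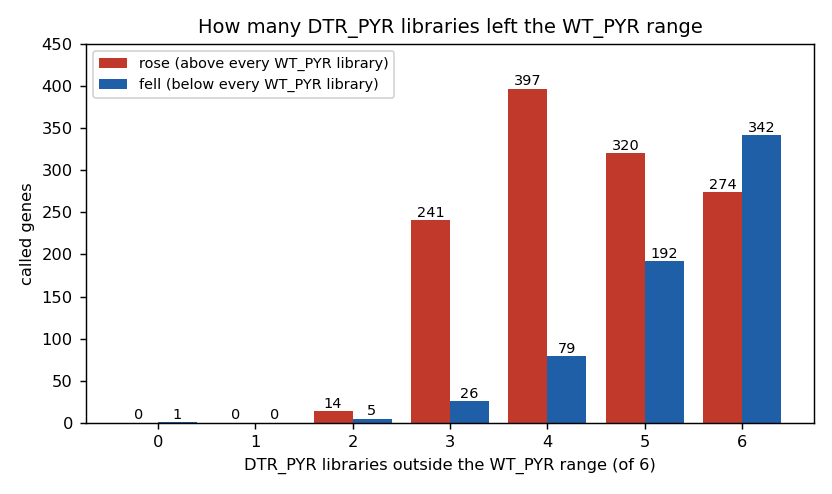
Number of called genes (vertical axis) by how many of the 6 DTR_PYR libraries lay outside the range of the 6 WT_PYR libraries (horizontal axis), for genes that rose (red, above the range) and fell (blue, below it). Rises peak at 4 libraries with 397 genes, and falls at all 6 with 342.

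The immediate early genes are transcription factors and regulators that cells switch on within minutes of a stimulus, with no new protein needed. Of 21 tested, 15 rose and 6 did not pass, against 8.06% of all genes called up, with a median difference of 1.60 (log2) where the median of all genes was 0.04. The limma voom fits called 8 without and 11 with quality weights. Fos, a subunit of the AP-1 factor (ENSMUSG00000021250, GRCm38 chromosome 12, 85473890 to 85477273), had 4.50, 12.7, 3.63, 9.51, 5.08 and 3.03 CPM (a gene's reads scaled to the size of its library) in WT_PYR 1 to 6 and 35.9, 46.2, 90.0, 28.0, 28.1 and 76.9 in DTR_PYR 1 to 6. Every injured library was above every uninjured one, and the highest were DTR_PYR 3 and 6. The difference was 2.98 ± 0.43 (log2 ± SE, adjusted p = 0.000476). Egr2, a zinc-finger factor, had 0.146 to 2.15 CPM in the uninjured hearts and 13.4, 19.5, 25.3, 2.16, 3.06 and 6.89 in DTR_PYR 1 to 6. Its groups also did not overlap, though DTR_PYR 4 barely exceeded the highest uninjured library, WT_PYR 3. Fosb, Junb and the nuclear receptor Nr4a1, named after their values were seen, were the other 3 of the 5 members without overlap, with differences of 2.23, 2.02 and 1.60. Nr4a1 had 14.4 to 49.8 CPM in WT_PYR and 57.7, 58.0, 144, 105, 63.3 and 134 in DTR_PYR 1 to 6.

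The promoters of these genes are shown because all 6 injured hearts were above the uninjured range, for some genes only by a small margin. TGACG is the half-site of the cAMP response element, a sequence through which signals reach many immediate early genes. GAANNTTC is the core of the heat shock element. RefSeq promoters (build GRCm38.p6, the 250 bases before the start) were found for 8 of the 9 immediate early and heat shock genes whose groups did not overlap. The sequences below are 5′ to 3′ on the gene's strand, from chr12:85473640-85473889 (plus), chr15:101266596-101266845 (plus) and chr17:34972157-34972406 (minus). Capitals mark TGACG on either strand in the first pair and GAANNTTC in the last.
Fos: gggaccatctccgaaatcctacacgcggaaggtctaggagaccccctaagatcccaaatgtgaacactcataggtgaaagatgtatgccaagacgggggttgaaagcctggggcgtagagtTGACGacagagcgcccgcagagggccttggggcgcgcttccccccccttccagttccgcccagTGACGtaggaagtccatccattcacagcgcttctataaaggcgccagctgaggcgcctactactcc
Nr4a1: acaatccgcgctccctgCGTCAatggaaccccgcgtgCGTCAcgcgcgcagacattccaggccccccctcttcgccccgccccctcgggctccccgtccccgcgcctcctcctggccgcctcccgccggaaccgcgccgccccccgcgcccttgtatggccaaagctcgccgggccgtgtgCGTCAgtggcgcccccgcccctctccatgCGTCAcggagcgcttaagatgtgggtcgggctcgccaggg
Hspa1a: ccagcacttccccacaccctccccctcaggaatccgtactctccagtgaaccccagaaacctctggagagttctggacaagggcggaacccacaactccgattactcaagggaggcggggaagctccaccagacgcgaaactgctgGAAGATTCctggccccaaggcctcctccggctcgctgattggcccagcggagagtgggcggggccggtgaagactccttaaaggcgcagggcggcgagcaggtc
Of the 5 immediate early promoters, 4 held TGACG on either strand, where 17.8% of 32841 mouse promoter windows of that length did. Egr2 did not hold it in this window. The heat shock gene Hspa4 held it as well. Of the 3 heat shock promoters found, Hspa1a alone held GAANNTTC, a palindrome whose strands coincide, which 6.70% of the windows held. The letters searched were chosen after these genes were known to rise, and a match describes the sequence only.

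Heat shock genes code for chaperones that hold and refold damaged proteins. Of 18 tested, 8 rose and 10 did not pass, where 8.06% of all genes rose, with a median difference of 0.59. The mean shift of the list was 0.98, 0.78, 0.90, 0.43, 0.63 and 0.49 (log2) in DTR_PYR 1 to 6, all above 0. Hspa1a, the inducible HSP70 (ENSMUSG00000091971, chromosome 17, 34969190 to 34972156), had 0.913 to 1.22 CPM in the 6 uninjured libraries and 14.0, 26.0, 7.80, 1.73, 2.02 and 3.20 in DTR_PYR 1 to 6. All injured libraries were above the uninjured ones, and DTR_PYR 4 and 5 only by a small margin. The difference was 3.05 ± 0.59 (adjusted p = 0.00301), and limma voom did not call it. Reads may be split between it and its near copy Hspa1b. Hsp90aa1, the inducible HSP90, went from 16.4 to 35.9 CPM in WT_PYR to 116, 121, 125, 49.8, 59.0 and 54.1 in DTR_PYR 1 to 6, a difference of 1.82 ± 0.30 (adjusted p = 0.000841). Hspa4, a co-chaperone of HSP70, went from 90.6 to 144 CPM to 167 to 239, and was above the uninjured range in every injured library. Chordc1, a co-chaperone of HSP90 named after its values were seen, was the remaining member without overlap (1.19).

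Genes that hearts turn on under stress or in fetal life rose in 15 of 20 and none fell, with a median of 1.88, and limma voom called 11 without and 9 with quality weights. Their mean shift was 2.80, 2.74, 2.67, 0.31, 0.36 and 1.06 in DTR_PYR 1 to 6. Serpina3n, an acute-phase inhibitor of proteases (ENSMUSG00000021091, chromosome 12, 104406729 to 104414329), had 14.0, 10.2, 15.2, 9.22, 11 and 7.81 CPM in WT_PYR 1 to 6. It had 202, 277, 226, 19.2, 25.6 and 98.8 in DTR_PYR 1 to 6. Each injured library was above each uninjured one, with DTR_PYR 6 between the 3 high and the 2 low ones. The difference was 3.65 ± 0.46 (adjusted p = 0.000322).

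Nppb, which codes for B-type natriuretic peptide, the hormone of stretched ventricles, had 380.4, 141, 302, 263, 204 and 188 CPM in WT_PYR 1 to 6. It had 3185, 3136, 2763, 332, 413 and 640.1 in DTR_PYR 1 to 6, with DTR_PYR 4 inside the uninjured range (2.82 ± 0.44, adjusted p = 0.00053). Nppa, its atrial relative, had 76.0 to 155 CPM in WT_PYR and 687, 996, 538, 100.1, 104 and 169 in DTR_PYR 1 to 6. DTR_PYR 4 and 5 were inside the range (1.93 ± 0.42, adjusted p = 0.00591). The call of Nppa was lost in limma voom with quality weights (adjusted p = 0.0585). Nmrk2, a kinase that makes NAD from nicotinamide riboside, had 11 to 16.8 CPM against 178, 196, 166, 22.2, 24.7 and 34.1, and Tnfrsf12a, the receptor of the cytokine TWEAK, 26.9 to 58.0 against 403, 388, 333, 62.1, 74.1 and 133. Neither overlapped between the groups. The locus of Nmrk2 (mean over the 24 libraries 74.7 CPM) overlaps that of Atcayos (43.8 CPM), and without strand their reads cannot be told apart. Sprr1a, a proline-rich protein made under stress, showed the widest spread of the genes named, with 0.915 to 4.30 CPM in WT_PYR and 73.7, 216, 66.7, 1.19, 2.61 and 2.24 in DTR_PYR 1 to 6. Its difference was 4.70 ± 0.94 (adjusted p = 0.00373), and −0.11 with DTR_PYR 1, 2 and 3 left out. The call of Sprr1a was lost in limma voom without and with quality weights (adjusted p = 0.28 and 0.43).

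The myosin heavy chains did not pass. Myh7, the slow chain that fetal hearts use, had 254 to 919 CPM in WT_PYR and 793, 874, 1058, 335, 303 and 3614 in DTR_PYR 1 to 6 (1.21 ± 0.45, adjusted p = 0.0733). DTR_PYR 6 was the highest of all 12 here, and the other 5 injured libraries did not exceed the uninjured range except for DTR_PYR 3. The long RNA Mhrt overlaps this locus and the counts were not strand-specific. Myh6, the adult chain, had 26208 to 37253 CPM in WT_PYR and 14970.0, 8118, 21404, 30463, 26493 and 24553 in DTR_PYR 1 to 6 (−0.70 ± 0.33, adjusted p = 0.160).

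**Figure D2:**
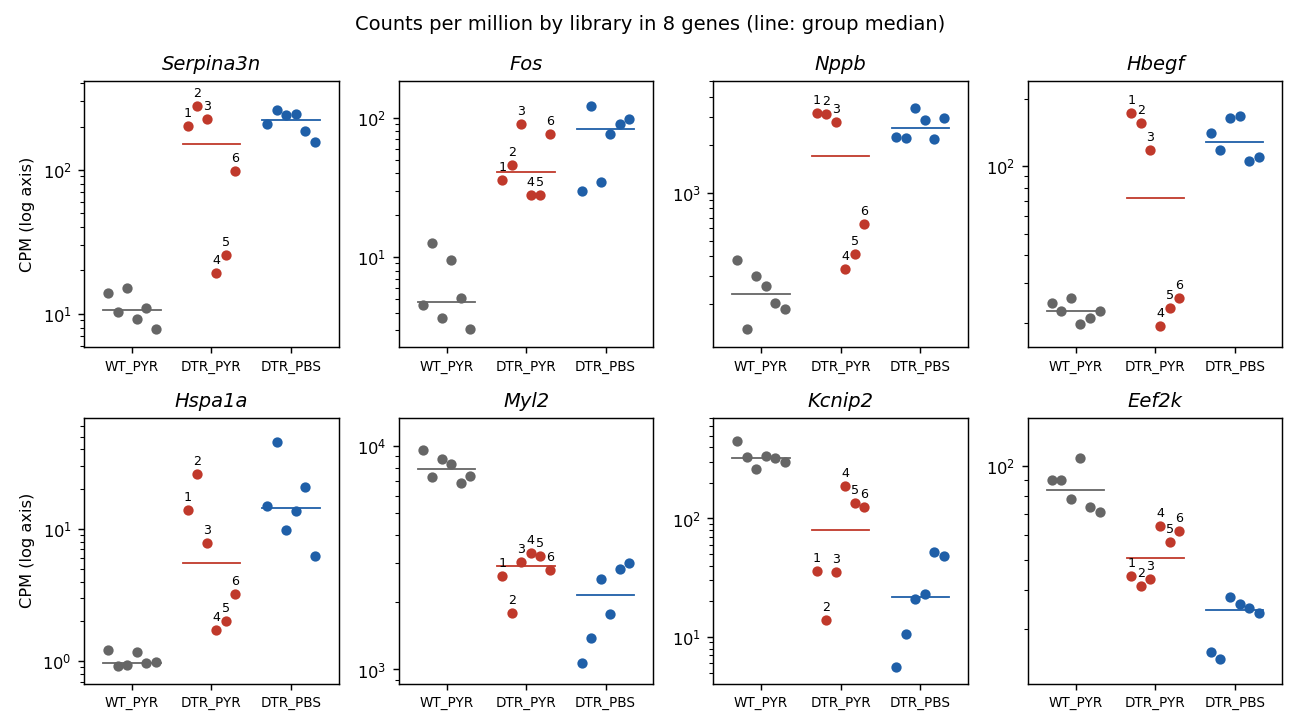
CPM (log axis) of 8 genes in each library of WT_PYR (grey), DTR_PYR (red, numbered by library) and DTR_PBS (blue), with lines at the group medians. Fos and Myl2 moved in all 6 DTR_PYR libraries, while Hbegf moved in 1, 2 and 3 and stayed at 19.3 to 25.8 CPM in 4, 5 and 6.

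Extracellular matrix genes rose in 29 of 40 in edgeR, where each limma voom fit called 17, and 11 did not pass, with a median of 1.67 and mean shifts of 2.21, 2.97, 1.82, 0.21, 0.35 and 0.55 in DTR_PYR 1 to 6. Timp1, an inhibitor of the matrix metalloproteinases, had 15.9, 16.8, 21.6, 5.85, 3.57 and 9.78 CPM in WT_PYR 1 to 6 and 357, 804, 255, 13.2, 16.8 and 34.9 in DTR_PYR 1 to 6. DTR_PYR 4 and 5 fell inside the uninjured range (4.32 ± 0.81, adjusted p = 0.00241). The call of Timp1 was lost in limma voom with quality weights (adjusted p = 0.0606). Col1a1, the main collagen of scar, had 191 to 312 CPM in WT_PYR and 1160.0, 2902, 799.5, 252, 258 and 408 in DTR_PYR 1 to 6 (2.1 ± 0.44, adjusted p = 0.00452). Postn, periostin of activated fibroblasts, was 1 of the 8 matrix genes without overlap, with 7.03 to 24.7 CPM against 93.0, 103, 81.1, 28.8, 47.1 and 26.3 (1.89 ± 0.38, adjusted p = 0.00408). Thbs1, thrombospondin 1, and Ctgf, a matrix-bound factor linked to scarring, rose by 3.52 and 2.59, in each with DTR_PYR 4 inside the uninjured range. Spp1, osteopontin, had 1.24 to 43.9 CPM already among the uninjured hearts and 240, 646, 150, 4.75, 4.04 and 11.7 in DTR_PYR 1 to 6. Its adjusted p was 0.0495, and its difference turned from 3.26 to −1.5 with DTR_PYR 1, 2 and 3 left out. Of 15 markers of resting fibroblasts, the cells that make much of this matrix, 3 rose, 1 fell and 11 did not pass, with a median of 0.08, where 8.06% of all genes rose and 4.17% fell. Mfap5, a microfibril protein, rose by 1.52 and Pdgfra, a growth factor receptor of fibroblasts, by 0.78, a call that 8 alternative settings ended.

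Macrophage markers rose in 20 of 20 tested in edgeR, with a median of 1.65, and limma voom called 5 of them without and 4 with quality weights. Of all genes tested, edgeR called 8.06% up. In bulk tissue, more cells of a type and more RNA per cell cannot be told apart. The mean shift was 2.23, 3.29, 1.77, 0.32, 0.47 and 0.46 in DTR_PYR 1 to 6, and the summed level of the 20 markers was 323 to 552 CPM in WT_PYR and 512 to 4370.0 CPM in DTR_PYR. Itgam, an integrin of myeloid cells, had 4.29 to 9.31 CPM in WT_PYR and 54.7, 125, 40.2, 9.61, 11.7 and 13.5 in DTR_PYR 1 to 6, with no overlap (2.48 ± 0.50, adjusted p = 0.00408). Neither limma voom fit called it (adjusted p = 0.0634 without and 0.0627 with quality weights). Ctss, a lysosomal protease, had 6.33 to 16.0 CPM and 88.7, 216, 67.4, 14.9, 17.6 and 17.9, with DTR_PYR 4 inside the range (2.79 ± 0.55, adjusted p = 0.00308). Only 3 of the 20 markers, Itgam, Mrc1 and Ptprc, had no overlap, the last pair named after their values were seen. Of all genes called up, 22% had no overlap.

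Markers of monocytes that enter injured tissue rose in 9 of 15 in edgeR, with a median of 2.94, and in 2 of 15 in either limma voom fit. Their mean shift was 3.10, 4.30 and 2.51 in DTR_PYR 1, 2 and 3 and −0.05, 0.17 and 0.24 in DTR_PYR 4, 5 and 6, so these last 3 stood near the uninjured mean. Lgals3, a lectin of phagocytes, rose by 3.56, Hmox1, which breaks down heme, by 3.22, and Ccr2, the receptor that draws monocytes in, by 2.59 (2.59 ± 0.70, adjusted p = 0.0191, lost without DTR_PYR 1, without DTR_PYR 2 and in both limma voom fits). Ccr2 had 0.732 to 4.03 CPM in WT_PYR and 29.4, 28.7, 9.75, 2.16, 4.80 and 2.72 in DTR_PYR 1 to 6. None of the 15 genes was free of overlap, where 2.19% of all genes tested were higher without overlap. Markers of resident cardiac macrophages showed another order. They rose in 4 of 11 (median 0.53), with shifts of 0.78, 0.86, 0.42, 0.54, 0.43 and 0.07. F13a1, a clotting factor subunit, had 16.4 to 28.7 CPM in WT_PYR and 57.1, 84.0, 44.8, 45.5, 52.6 and 36.2 in DTR_PYR 1 to 6, above the uninjured range in all 6 (1.23 ± 0.25, adjusted p = 0.00373).

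Cytokine and chemokine genes rose in 20 of 30 in edgeR (median 2.26), and each limma voom fit called 1 of 30. None of the 20 was free of overlap, where 22% of all genes called up were. Ccl2, the main chemokine for monocytes and the ligand of Ccr2, had 4.50, 6.21, 6.31, 1.02, 1.65 and 5.42 CPM in WT_PYR 1 to 6 and 63.3, 124, 54.2, 6.48, 6.23 and 9.29 in DTR_PYR 1 to 6 (3.32 ± 0.65, adjusted p = 0.00324). DTR_PYR 5 was inside the range. Il1b had 0.0704 to 1.07 CPM in WT_PYR and 5.89, 10.7, 3.51, 0.540, 0.729 and 0.641 in DTR_PYR 1 to 6 (2.84 ± 0.69, adjusted p = 0.0105). Il6 had 0 to 0.229 CPM in WT_PYR and 2.06, 1.48, 5.46, 0.108, 0.028 and 0.160 in DTR_PYR 1 to 6 (3.72 ± 1.05, adjusted p = 0.0232). For both, DTR_PYR 4, 5 and 6 were inside the uninjured range. Ccl2, Il1b and Il6 lost their calls in both limma voom fits, and Il1b and Il6 also without DTR_PYR 2. Cxcl10, a chemokine for T cells, rose by 3.51 (adjusted p = 0.00301), but its locus overlaps Art3 and the counts were not strand-specific. The neutrophil list had 1 of 9 up, Lcn2, an iron-binding protein that other cells also make (3.06 ± 0.52), whose level was 32.5, 40.8, 62.8, 5.72, 4.71 and 56.5 CPM in DTR_PYR 1 to 6 against 2.42 to 7.18. In limma voom without quality weights Lcn2 was not called (adjusted p = 0.0543). The granule gene Ngp of that list had no read in these 12 libraries. Of T and NK cell markers 1 of 7 rose, Cd3e of the T cell receptor complex, with 0.108 to 0.168 CPM in DTR_PYR 4, 5 and 6. Of B cell markers edgeR called 0 of 9 (0 at an unadjusted p under 0.05) and of mast cell markers 0 of 5 (1 unadjusted), and DESeq2 and both limma voom fits also called 0. Of 25 interferon-stimulated genes edgeR called 0 (3 unadjusted), DESeq2 3 and both limma voom fits 0.

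Targets of p53, the factor that answers DNA damage, rose in 7 of 15 in edgeR, and each limma voom fit called 4. Eda2r, a receptor of the TNF receptor family, had 1.24 to 2.69 CPM in WT_PYR and 20.2, 24.9, 17.2, 6.48, 7.52 and 4.48 in DTR_PYR 1 to 6 (2.72 ± 0.39, adjusted p = 0.000476). Btg2, which slows proliferation and is also an early response gene, had 34.6 to 49.5 CPM and 277, 232, 328, 70.5, 70.5 and 195 (2.27 ± 0.30, adjusted p = 0.000371). Neither overlapped between the groups. Cell cycle genes rose in 13 of 32 and 1 fell in edgeR, where each limma voom fit called 1 of 32, with shifts of 1.72, 2.83, 0.97, 0.28, 0.43 and 0.51. Top2a, the topoisomerase of dividing cells, had 0.878 to 4.97 CPM in WT_PYR and 16.0, 36.4, 13.3, 3.67, 5.05 and 4.64 in DTR_PYR 1 to 6 (2.38 ± 0.57, adjusted p = 0.00988, lost in both limma voom fits at 0.0975 and 0.0881). The member that fell, the centromere histone Cenpa, did not overlap, at 29.0 to 46.2 CPM against 15.7 to 24.6 (−1.02 ± 0.17, adjusted p = 0.000887). Of the integrated stress response, which slows translation, 9 of 23 rose in edgeR, and each limma voom fit called 4. Atf4, its central factor, had 60.9 to 78.8 CPM in WT_PYR and 375, 355, 394, 81.8, 93.2 and 148 in DTR_PYR 1 to 6 (1.78 ± 0.29, adjusted p = 0.000882), above the uninjured range throughout.

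**Figure D3:**
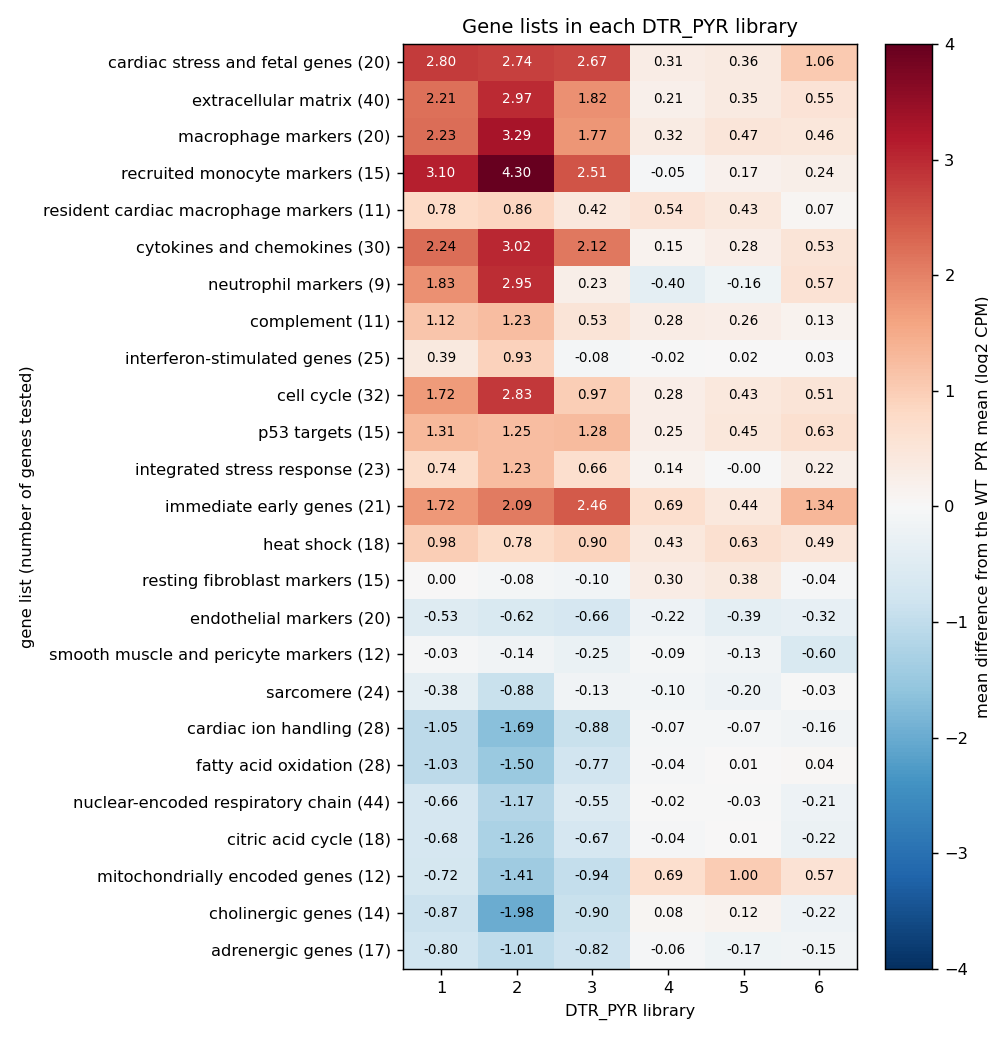
Mean difference of each gene list (rows, with the number of genes tested) from the WT_PYR mean, in log2 CPM, for the 6 DTR_PYR libraries (columns). Red is higher and blue lower. The mitochondrially encoded genes run from −1.41 in DTR_PYR 2 to 1 in DTR_PYR 5, and the recruited monocyte markers from 4.30 in DTR_PYR 2 to −0.05 in DTR_PYR 4.

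Of the called genes, 118 fell more than 2-fold and 772 rose more than 2-fold. Myl2, the regulatory light chain of the ventricle (ENSMUSG00000013936, chromosome 5, 122100951 to 122113472), had 9610.0, 7276, 8755, 8343, 6854 and 7389 CPM in WT_PYR 1 to 6 and 2615, 1788, 3024, 3333, 3214 and 2795 in DTR_PYR 1 to 6. All 6 injured libraries, DTR_PYR 4, 5 and 6 included, were below every uninjured one, at 1788 to 3333 CPM. The difference was −1.52 ± 0.22 (adjusted p = 0.000476), and with DTR_PYR 1, 2 and 3 left out it was −1.37 (adjusted p = 0.0675). Of 24 sarcomere genes, Myl2 among them, 1 rose, 3 fell and 20 did not pass, with a median of −0.20. Smpx, a small muscle protein, was the one that rose (0.42 ± 0.14, adjusted p = 0.0436), and 10 of the alternative settings ended that call.

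Kcnip2, which joins the channel that carries the transient outward current (ENSMUSG00000025221, chromosome 19, 45791839 to 45816061), had 454, 327, 264, 339, 321 and 301 CPM in WT_PYR 1 to 6 and 36.2, 13.9, 35.1, 189, 135 and 124 in DTR_PYR 1 to 6. Its groups did not overlap, but DTR_PYR 1, 2 and 3 were much lower than the other injured hearts (−1.90 ± 0.47, adjusted p = 0.0115). In the list of cardiac ion handling 3 of 28 fell, where 4.17% of all genes did. All 3 were without overlap: Kcnip2, the pacemaker channels Hcn2 (−1.16 ± 0.26, adjusted p = 0.00673) and Hcn4 (−1.35), the last named after its values were seen. The list's median was −0.47 and its shifts were −1.05, −1.69 and −0.88 in DTR_PYR 1, 2 and 3 and −0.07, −0.07 and −0.16 in the others.

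The other large falls without overlap were in genes of several kinds. Snai3, a transcriptional repressor, went from 9.71 to 17.6 CPM to 0, 0.296, 2.73, 6.48, 5.02 and 4.80 in DTR_PYR 1 to 6 (−1.94 ± 0.48, adjusted p = 0.0117). The first value is 0 reads, where 3 reads would be 0.442 CPM. Sbk2, a kinase of striated muscle, went from 10.7 to 15.8 CPM to 0.296 to 7.45 (−1.62 ± 0.43), and Hdac11, a histone deacetylase, from 31.7 to 47.4 to 3.85 to 22.2 (−1.52 ± 0.30). Lrrc4b, a synaptic adhesion protein, had 87.6 to 214 CPM in WT_PYR and 32.4, 26.9, 52.6, 45.5, 48.5 and 70.5 in DTR_PYR 1 to 6. Its 6 injured libraries were all below the uninjured range and varied about as much as the uninjured ones, with an SD of log2 CPM of 0.50 against 0.44 (−1.61 ± 0.36, adjusted p = 0.00671). Slc9a2, a sodium-proton exchanger, and Ramp1, a subunit of the receptor for calcitonin gene-related peptide, fell by 1.49 and 1.40. The calcium channel subunit Cacna1s and the muscle protein Ky each fell by 1.49, with adjusted p of 0.0257 and 0.0479. Of the alternative settings 5 ended the call of Cacna1s and 11 that of Ky, among them leaving out DTR_PYR 1 (0.0705 and 0.119).

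Most genes of mitochondrial metabolism did not pass. Fatty acid oxidation genes fell in 3 of 28, nuclear-encoded respiratory chain genes in 3 of 44 and citric acid cycle genes in 4 of 18, against 4.17% of all genes, with medians of −0.47, −0.43 and −0.51. Their shifts were −0.55 to −1.5 in DTR_PYR 1, 2 and 3 and −0.22 to 0.04 in DTR_PYR 4, 5 and 6. Cs, citrate synthase, had 2077, 1492, 1582, 1748, 1581 and 1832 CPM in WT_PYR 1 to 6 and 956, 687, 1011, 1332, 1332 and 1200.1 in DTR_PYR 1 to 6. No injured library overlapped the uninjured ones (−0.66 ± 0.19, adjusted p = 0.0272). Got2, the mitochondrial aspartate aminotransferase, also fell without overlap (−0.65 ± 0.20, adjusted p = 0.0317), as did Ogdh, a subunit of the oxoglutarate dehydrogenase complex, named after its values were seen (−0.72 ± 0.23, adjusted p = 0.0439). Hadh, a dehydrogenase of fatty acid oxidation, had 671 to 853 CPM in WT_PYR and 263, 165, 308, 584, 564 and 493 in DTR_PYR 1 to 6 (−0.86 ± 0.27, adjusted p = 0.0362). The calls of Cs, Got2 and Hadh were ended by 7, 7 and 8 of the alternative settings. Of 12 mitochondrially encoded genes edgeR called 0 (1 at an unadjusted p under 0.05), DESeq2 1 and both limma voom fits 0. Their shifts were −0.72, −1.41 and −0.94 in DTR_PYR 1, 2 and 3 and 0.69, 1 and 0.57 in DTR_PYR 4, 5 and 6, which lie on opposite sides of the uninjured mean. In glycolysis 3 of 23 rose and 2 fell, with the lactate exporter Slc16a3 at 1.69 and Pgam1 at 1.06. Slc16a3 had 19.7, 35.8 and 13.6 CPM in DTR_PYR 1, 2 and 3. DTR_PYR 4, 5 and 6, at 3.78, 3.42 and 3.68, were inside the uninjured range of 3.22 to 4.57. Its call was ended by 5 of the alternative settings, both limma voom fits among them.

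Endothelial markers fell in 6 of 20, where 4.17% of all genes fell. Their median was −0.38 and their shifts −0.53, −0.62, −0.66, −0.22, −0.39 and −0.32. All 6 libraries were on the same side, and their summed level was 2352 to 3154 CPM in WT_PYR and 2070 to 2471 CPM in DTR_PYR, ranges that overlapped. Cdh5, the cadherin of endothelial junctions, had 466, 402, 374, 459, 427 and 419 CPM in WT_PYR 1 to 6 and 246, 258, 248, 339, 272 and 305 in DTR_PYR 1 to 6, without overlap (−0.61 ± 0.13, adjusted p = 0.0049). Tie1, a receptor of the same cells, fell by 0.72. Among markers of smooth muscle and pericytes 1 of 12 fell, the pericyte channel Kcnj8 (−0.65 ± 0.18), which was lowest in DTR_PYR 2 and 6 at 20.7 CPM each.

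Genes of the transmitter that the drug preserves mostly did not pass. Of 31 cholinergic genes 14 were tested and 1 fell, Lynx1, which restrains nicotinic receptors. Lynx1 had 528, 413, 426, 449, 465 and 478 CPM in WT_PYR 1 to 6 and 142, 95.3, 172, 339, 283 and 250.2 in DTR_PYR 1 to 6, without overlap (−1.10 ± 0.25, adjusted p = 0.00761). Ache, acetylcholinesterase, the target of the drug, had 3.37 to 6.39 CPM in WT_PYR and 4.27, 1.18, 3.12, 3.67, 3.70 and 2.24 in DTR_PYR 1 to 6 (−0.53 ± 0.31, adjusted p = 0.253).

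Bche, butyrylcholinesterase, split by library, with 2.21 to 11.6 CPM in WT_PYR, 5.15, 0.888 and 4.29 in DTR_PYR 1, 2 and 3, and 15.6, 18.6 and 12 in DTR_PYR 4, 5 and 6 (0.46 ± 0.46, adjusted p = 0.532). Chrm2, the muscarinic receptor of the heart, had 30.3 to 118 CPM in WT_PYR and 94.1 to 142 in DTR_PYR (0.44 ± 0.25, adjusted p = 0.234). The lowest value, 30.3, was WT_PYR 1. The nicotinic receptor Chrna7 stayed below the filter on low counts, with 0 reads over the 6 WT_PYR libraries and 2 over the 6 DTR_PYR libraries. Of 17 adrenergic genes 2 fell, the cyclase Adcy5 (−0.85 ± 0.23) and the receptor Adra1b (−1.14 ± 0.36), whose call 10 alternative settings ended. In the list around diphthamide, the modified residue of elongation factor 2 that the toxin attacks, Eef2k, the kinase of that factor, fell from 71.2 to 106 CPM to 41.1 to 63.9, without overlap (−0.70 ± 0.15, adjusted p = 0.00496), and Dph5, a diphthamide enzyme, rose by 1 (log2).

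The spread between the injured hearts was then taken gene by gene. Over the 6199 genes that averaged 20 CPM or more, the median SD of log2 CPM was 0.34 in DTR_PYR, 0.22 in WT_PYR and 0.30 in DTR_PBS, and 72.5% of genes varied more in DTR_PYR than in WT_PYR. SD above 1 was seen in 230 genes in DTR_PYR, 77 in DTR_PBS and 33 in WT_PYR. A limma fit to the absolute deviations from the group mean called 591 genes (9.53%) as differing in spread between DTR_PYR and WT_PYR, 585 of them wider in DTR_PYR. Against DTR_PBS it called 248 (4%), 225 wider and 23 narrower in DTR_PYR. No gene was called against WT_PYR once DTR_PYR 1, 2 and 3, or 4, 5 and 6, were left out (545 and 1043 at an unadjusted p under 0.05). Those sets were chosen after the values were seen, as groups of like libraries, so a smaller spread is built into the choice. Each also leaves only 3 injured libraries in the fit. On simulated counts of these 6199 genes, 200 genes were given extra spread in the injured libraries. The fit found 97.5% of them when those libraries split 3 and 3, by 1.5 (log2) up and 1.5 down. It found 2.5% of them when the extra spread was normally distributed with an SD of 1.5. At that size it found mainly splits. Smaller sizes were not simulated, and most genes here had a smaller SD.

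Hbegf, a growth factor of the EGF family that in humans serves as the toxin's receptor (ENSMUSG00000024486), was the first in that test. It had 24.6, 22.5, 25.8, 19.8, 21.0 and 22.5 CPM in WT_PYR 1 to 6 and 172, 155, 118, 19.3, 23.3 and 25.8 in DTR_PYR 1 to 6. DTR_PYR 4 was below the lowest uninjured library and 5 and 6 inside the range. The SD of log2 CPM was 1.49 against 0.14 (spread test, limma adjusted p = 2.11e-05). The receptor of the model is not told apart from this gene in the files. Uck2, a kinase of uridine and cytidine, had 44.8 to 72.7 CPM in WT_PYR and 698, 779, 607, 67.9, 74.0 and 135 in DTR_PYR 1 to 6. Fat1, a giant cadherin, had 55.8 to 73.7 CPM and 198, 270, 221, 62.2, 64.4 and 74.8, and Rhoc, a small GTPase, 57.7 to 77.4 and 152, 177, 170, 57.6, 59.8 and 63.7. In each of these 3 genes DTR_PYR 1, 2 and 3 were high and DTR_PYR 4 and 5 in or near the uninjured range, as was DTR_PYR 6 for Fat1 and Rhoc but not for Uck2. A530016L24Rik, a gene without a described function in the files, showed the split in a fall, with 53.2 to 84.0 CPM in WT_PYR and 4.71, 5.62, 7.80, 38.8, 32.4 and 34.6 in DTR_PYR 1 to 6.

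**Figure D4:**
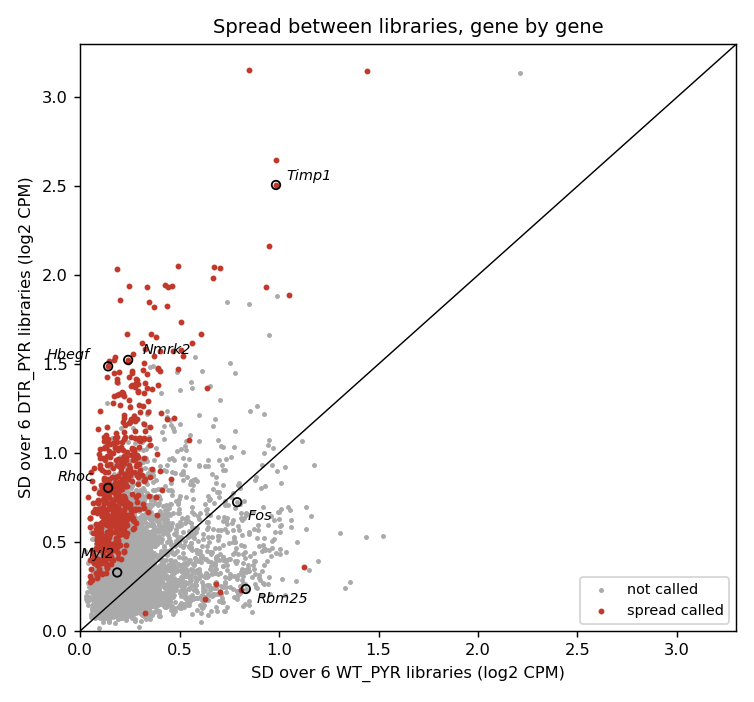
SD of log2 CPM over the 6 DTR_PYR libraries (vertical axis) against that over the 6 WT_PYR libraries (horizontal axis), 1 point per gene that averaged 20 CPM or more, with genes called in the spread test in red and the line of equal SD. Most called genes lie above the line, such as Hbegf at 1.49 against 0.14, while Fos, Myl2 and Rbm25 were not called.

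At the other end were genes that changed at least 2-fold without overlap and varied least among the injured hearts. Of these, Cenpa fell. Abce1, a ribosome recycling factor, the splicing factor Rbm25, the RNA helicase Ddx3x and Bclaf1, a factor of transcription and splicing, rose by 1.01 to 1.21. Rbm25 had 11.4, 50.9, 50.4, 32.1, 45.9 and 45.5 CPM in WT_PYR 1 to 6 and 87.1, 80.8, 95.5, 59.4, 73.1 and 79.8 in DTR_PYR 1 to 6. Abce1, Rbm25, Ddx3x and Bclaf1 each had their lowest uninjured value in WT_PYR 1. Without WT_PYR 1 the differences of Ddx3x, Rbm25 and Bclaf1 were 0.83, 0.81 and 0.87, with adjusted p of 0.0713, 0.0550 and 0.0575 in edgeR, and leaving out single injured libraries also ended these calls.

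One value per animal was compared as well. The mean absolute deviation per gene from the group median was 0.313 ± 0.101 (SD, n = 6) in DTR_PYR, 0.183 ± 0.117 in WT_PYR and 0.269 ± 0.108 in DTR_PBS. The difference from WT_PYR did not pass (exact two-sided permutation p = 0.0693, adjusted p = 0.208), nor did that from DTR_PBS (exact p = 0.465, adjusted p = 0.698). Without WT_PYR 1 the first difference went from 0.130 to 0.186, with an exact permutation p of 0.00216, the smallest that 6 against 5 libraries can give. WT_PYR 1 held the highest uninjured value of this same measure (0.418, next 0.163), so that p follows from leaving it out. Any other single library left out gave an exact permutation p of 0.0952 to 0.307, with a difference of 0.0672 without DTR_PYR 2.

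The share of genes outside the range of WT_PYR was counted in each library that did not set that range. Of the genes of at least 20 CPM, 28.9%, 31.2% and 30.3% lay above it in DTR_PYR 1, 2 and 3 and 15.5%, 23.6% and 21.9% in DTR_PYR 4, 5 and 6. Below it lay 35.4%, 38.9% and 32.4% in the first 3 and 21.6%, 35.7% and 21.1% in the others. In DTR_PBS 26.6% to 33.0% lay above and 30.6% to 48.8% below. Uninjured WT_PBS libraries, given PBS in place of the drug, also left the range, with 7.74% to 25.8% above and 4.60% to 42.4% below. The shares above overlap those of DTR_PYR 4, 5 and 6, and the shares below overlap those of all 6 DTR_PYR libraries. The highest share below, 42.4%, was in WT_PBS 6 and exceeded that of every DTR_PYR library. The genes called up were above the range in 96.3% to 98.3% of cases in each DTR_PBS library and in 13.8% to 32.9% in each WT_PBS library. In DTR_PYR 1 to 6, whose own values chose the genes, the shares were 99.0%, 96.2%, 94.7%, 43.6%, 51.9% and 62.8%. The genes called down separated the groups less. They were below the range in 95.7% to 97.7% of cases in DTR_PBS libraries and in 5.58% to 68.8% in WT_PBS libraries. The highest of the latter was WT_PBS 6. In DTR_PYR 1 to 6 these shares were 97.5%, 96.4%, 97.2%, 72.4%, 85.9% and 80.2%. The PBS libraries set neither that range nor the contrast, but they were in the filter and the fit that called the genes. With the 12 compared libraries alone 1220 genes were called.

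**Figure D5:**
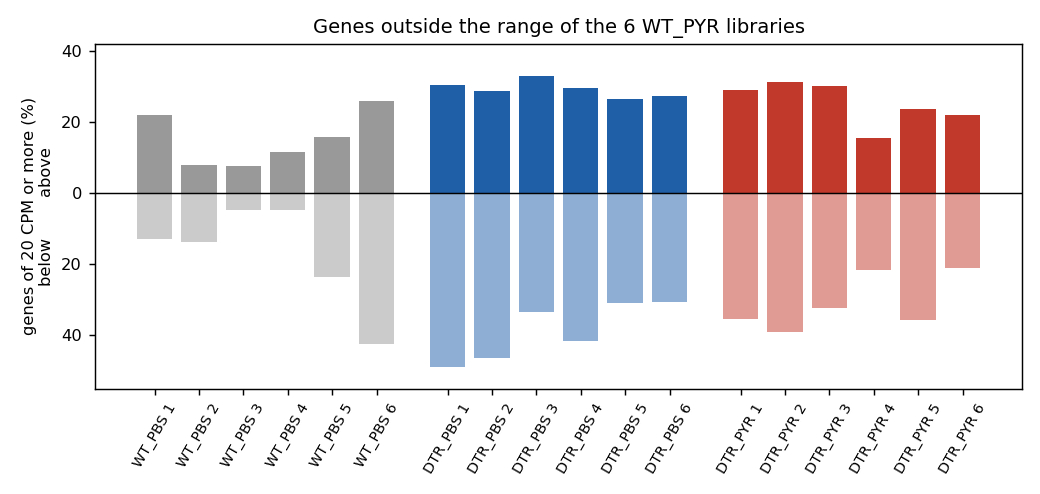
Percent of genes of at least 20 CPM that lay above (solid, upward) or below (pale, downward) the range of the 6 WT_PYR libraries, for each WT_PBS (grey), DTR_PBS (blue) and DTR_PYR (red) library. DTR_PYR 4 has 15.5% above and 21.6% below, within the span of the WT_PBS libraries.

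Set beside the injury under PBS, 6634 genes (42.9%) were called there. Of the 1891 genes called under pyridostigmine, 1773 were also called under PBS, all in the same direction, which is 93.8% of the calls under pyridostigmine and 26.7% of those under PBS. The control groups of these 2 comparisons are separate animals. The difference was smaller under pyridostigmine than under PBS in 1535 of the 1891. That count compares sizes only, among genes called under pyridostigmine, and its share over all genes was not taken. For Kcnip2 the difference was −1.90 under pyridostigmine and −3.61 under PBS, for Postn 1.89 and 3.04, and for Fos 2.98 and 2.57. In the test of that difference itself, the interaction, edgeR called 0 of 15456 genes (smallest adjusted p = 0.429), with 1231 (7.96%) at an unadjusted p under 0.05. DESeq2 called 9, limma voom 0, and limma voom with sample quality weights, which lowers the weight of libraries that stand apart, 379. A difference between the injury responses with and without the drug was therefore not detected for any named gene in edgeR.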

How the data were processed

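Poly(A) RNA of the ventricular apex was sequenced in 24 libraries, 6 in each of 4 groups. The authors deposited read counts per gene, whole numbers not normalized, which were used for every result. Per the submitters' processing notes, Bowtie2, TopHat2 2.1.1, HTSeq, DESeq and edgeR were named, with build GRCm38. Counting was not strand-specific, so overlapping, antisense and near-identical genes are uncertain. The authors also deposited a depth-normalized signal (counts divided by a size factor), which was only checked against the counts. Genes above 0.5 CPM in at least 6 of the 24 libraries were kept, 15456 in all, scaled by TMM and tested with edgeR 4.0.16 (quasi-likelihood, 4 groups, R 4.3.3) at a Benjamini-Hochberg adjusted p of 0.05. SE is the log2 difference divided by the square root of F. Spread was tested with limma 3.58.1 on absolute deviations of log2 CPM (prior count 2). A list's shift is its mean log2 CPM minus the WT_PYR mean. DESeq2 1.42.0, limma voom, other scalings and filters, tag letter and left-out libraries were alternatives.

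The genes named were the 10 largest rises and 10 largest falls without overlap (mean of at least 5 CPM), the 6 widest, 6 narrowest and 6 most different in spread (at least 20 CPM), up to 2 called members of each list by p, and 17 genes always given; not all are described, and some results are not reported here. The comparison, its members and the gene lists were chosen with earlier results of these data known. On simulated counts of the injury comparison (15456 genes), 200 genes that averaged at least 20 CPM were changed equally in all 6 injured libraries. Of these, edgeR recovered 81% of genes changed 2-fold and 100% of those changed 4-fold, with 5 false calls. Recovery of lower genes, or of changes in only some injured libraries, was not simulated.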

Additional observations from a re-analysis of the deposited data

Results flagged for a closer look

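The libraries of each group of 6 were searched for a highest or lowest value that stood apart by Dixon's criterion, which chance meets in about 1 in 20 groups. Of 204 checks on the 102 named genes 10 met it, and 2 library measures did too. Of these 12 values 10 were in WT_PYR 1.

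WT_PYR 1 was the highest uninjured library for Col1a1 at 312 CPM (next 219), the fatty acid oxidation genes Echs1 at 495 (next 382) and Hadh at 853 (next 722), and the channel Hcn2 at 105 (next 67.9). It was the lowest for the helicase Ddx3x at 20.3 CPM (next 50.6), the splicing factor Rbm25 at 11.4 (next 32.1), the chaperone Hspa4 at 90.6 (next 123), Bche at 2.21 (next 6.45) and Chrm2 at 30.3 (next 82.3). Its mean deviation per gene was 0.418 (log2), where the next uninjured library had 0.163. The diphthamide enzyme Dph5 was highest in WT_PYR 3, at 5.78 CPM (next 3.96). Among the injured libraries, DTR_PYR 2 had a mean deviation of 0.505, where the next had 0.339.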

How the results depend on the processing

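With all 24 libraries and TMM scaling 1891 genes were called. The count was 1232 with no filter on low counts, 1220 with the 12 libraries alone, 846 and 787 in limma voom with and without sample quality weights, 2920 with the tag letter as covariate, 4371 within U and 0 within V libraries, and 744 to 2699 with single libraries left out. Leaving out WT_PYR 1, 4 or 6 gave 1244, 1091 or 1254. With DTR_PYR 4, 5 and 6 left out, chosen after seeing the data, it was 5027, and without DTR_PYR 1, 2 and 3 it was 3. The 616 called genes without overlap became 4311 within U, 0 within V, 323 to 984 with single libraries left out, 4114 without DTR_PYR 4, 5 and 6, and 3 without DTR_PYR 1, 2 and 3. Of 97 named called genes, 46 kept direction and call in all 22 planned settings other than within V, and 51 lost the call in at least 1, 35 of them in a limma voom fit, 34 without a DTR_PYR library and 21 without a WT_PYR library. None reversed in a planned setting. Without DTR_PYR 1, 2 and 3, Rhoc (−0.14), Bax (−0.12), Slc16a3 (−0.13), Il6 (−0.28), Spp1 (−1.5), Cd3e (−0.036) and Sprr1a (−0.11) reversed. The causes were not tested.

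The 591 genes that differed in spread from WT_PYR became 350 with deviations from the median and 132 to 870 with single libraries left out. They became 0 with either set of 3 injured libraries left out, sets chosen after seeing the data. The 248 against DTR_PBS became 131 with counts thinned to a common depth, 135 with the median, and 37 to 368 with single libraries left out. The interaction, 0 in edgeR, gave 9 in DESeq2 and 379 in limma voom with sample quality weights. The mean deviation per library differed by 0.130 from WT_PYR, 0.0672 to 0.186 with single libraries left out. Against DTR_PBS it differed by 0.0440, −0.0185 to 0.102, reversed without DTR_PYR 2. The mitochondrial share differed by −0.346 percentage points, −1.88 to 0.782, reversed without DTR_PYR 1 (0.494), 2 (0.782) or 3 (0.578) or WT_PYR 6 (0.0502). Depth limits low genes, since 3 reads were 0.442 CPM in DTR_PYR 1 and libraries 2 and 3 were shallower. No paired analysis was possible because each library has its own animal tag and the replicate numbers follow accession order.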
